A study of Mus musculus with 2 samples.

Results

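Mcpt1 and Mcpt2 encode 2 granule proteases of mouse mast cells, and they are 2 of the 11691 genes in a table of unique molecular identifier (UMI) counts per cell. Both were chosen by name, with values of these data already in view, together with the questions of how they spread over cells, how the libraries differ, and which genes go with them among cells rich in Cpa3. Their levels are therefore descriptions, and no test was made. The cells were grown from C57/BL6 mouse concepti taken at embryonic day 8.5, Theiler stage 12, with 5 to 7 somite pairs. The embryo proper (Em-Ex) and the yolk sac (YS-Ex) were separated and each was kept as an explant for 9 to 10 days with SCF, IL-3 and FLT3 ligand, each at 100 ng/ml. Live cells sorted as CD31+CD45+c-Kit+CD41- then gave 1 droplet library per tissue, from many pooled concepti. With 1 library per condition, a difference between tissues cannot be told apart from a difference between cultures, sorts or libraries, and the intervals given here (95%, exact) cover counting error only.

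Mouse mast cells fall by textbook into a mucosal type, found in the gut lining, and a connective tissue type, found in skin and body cavities. Mcpt1 is a chymase, a chymotrypsin-like serine protease, of the mucosal type, known for its release during worm infection, and Mcpt2 is its close relative in the same granules. Cma1 and Mcpt4, both chymases as well, and the tryptase Tpsb2 mark the connective tissue type, while the carboxypeptidase Cpa3 is found in most mast cells. Mast cells grown in culture can carry genes of both types, and TGF-beta and Notch signals are known to raise Mcpt1 in such cultures.

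Of the deposited barcodes, those holding 1000 to 5000 genes and no more than 5% of UMIs from mitochondrial genes were kept, so that 3071 Em-Ex and 2087 YS-Ex cells were used, with a median of 12341 and 11729 UMIs per cell. Cpa3 stood at 40 or more UMIs per 10000 in 2200 Em-Ex cells (71.6%) and 1946 YS-Ex cells (93.2%), called Cpa3-high cells here. These cells carried other mast cell genes, with Cma1 at 16943 and 15110 CPM (UMIs of the gene per 1000000 UMIs, summed over cells) in Em-Ex and YS-Ex, and the histamine-forming enzyme Hdc at 2758 and 2065 CPM. Not all such genes were widely seen. Of the IgE receptor genes, Fcer1g had a UMI in 100% of these cells in both libraries. Ms4a2 had one in 36.0% and 39.6%, and Fcer1a in 6.23% and 5.65%. A barcode sequence found in both libraries was carried by 33 Em-Ex and 32 YS-Ex cells, 3 of which (1 and 2) were among the 426 and 133 cells with 10 or more UMIs per 10000 of Mcpt1 and Mcpt2 summed. Because both members stood beside high Cma1 in the same cells, no cell is called a mucosal mast cell here.

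The members lie 1 gene apart in a cluster of protease genes on mouse chromosome 14 (GRCm38, GENCODE vM21). Mcpt1 has 5 exons on the plus strand at chr14:56017971-56020384, and Mcpt2 has 5 exons on the plus strand at chr14:56042041-56044642. Mcpt9 lies between them, and Mcpt4 follows Mcpt2 on the minus strand at chr14:56059629-56062313. The transcripts of Mcpt1 and Mcpt2 that GENCODE numbers first were identical at 71.8% of aligned bases and at 60.7% of their last 300 bases, where the longest identical run was 20 bases. Mcpt4 was identical to Mcpt1 at 76.0% and to Mcpt2 at 67.3%, and in the last 300 bases its longest identical runs with them were 21 and 14 bases. Reads from the 3′ end of one gene therefore differ from those of the others at many bases, although single reads could be shared between them where they fall on an identical run.

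The stretch before the start of Mcpt1 is shown beside that of Mcpt4, because Mcpt4 was the gene whose level went most closely with the members in YS-Ex. The set of 32851 promoter entries used here (RefSeq, GRCm38.p6) held an entry for Mcpt1 but none for Mcpt2, so 1 of 2 members was matched. The lines give the 250 bases before each start, 5′ to 3′ on the strand of the gene, for Mcpt1 at chr14:56017714-56017963 (plus strand) and for Mcpt4 at chr14:56062311-56062560 (minus strand). Capitals mark GATAA, the core letters that GATA factors read, and the TATA box letters TATAAA.
Mcpt1: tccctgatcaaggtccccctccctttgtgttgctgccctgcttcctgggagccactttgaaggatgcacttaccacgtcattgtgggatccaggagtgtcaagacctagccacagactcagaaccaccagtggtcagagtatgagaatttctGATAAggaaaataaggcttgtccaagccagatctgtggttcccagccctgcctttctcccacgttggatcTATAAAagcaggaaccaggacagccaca
Mcpt4: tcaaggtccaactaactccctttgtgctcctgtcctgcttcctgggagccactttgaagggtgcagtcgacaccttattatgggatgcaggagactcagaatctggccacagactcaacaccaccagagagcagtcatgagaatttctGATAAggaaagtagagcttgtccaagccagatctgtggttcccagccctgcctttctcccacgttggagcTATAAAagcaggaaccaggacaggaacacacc
These stretches were identical at 81.9% of aligned columns (213 of 260), against 48.5% to 54.8% for the other pairs among Cma1, Mcpt1, Mcpt4, Mcpt8 and Mcpt9. GATAA began 98 bases before the start in Mcpt1 and 102 bases before it in Mcpt4, and TATAAA began 28 and 32 bases before it. Searched on both strands, GATAA was found in 22.6% and TATAAA in 12.4% of 32851 promoter entries of the same length. CAGAC, the core of a SMAD site, was found 138 bases before the start of Mcpt1 and 141 bases before that of Mcpt4, and in 42.2% of all entries. CANNTG, the E-box that MITF and other helix-loop-helix factors read, was found in neither, and in 66.2% of all entries. A match is a run of letters and not a measured binding site.

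Most cells held no UMI of either member, and a small share of cells held nearly all of them. Mcpt1 had 0 UMIs in 73.1% of Em-Ex and 91.2% of YS-Ex cells, and its 90th, 95th and 99th percentiles in Em-Ex were 2.86, 22.6 and 187 UMIs per 10000. The highest Em-Ex cell reached 904 per 10000, which was 942 UMIs of 1 gene in 1 cell, and the highest YS-Ex cell reached 488. Mcpt2 had 0 UMIs in 54.6% of Em-Ex and 75.5% of YS-Ex cells, with percentiles of 14.2, 48.3 and 177 in Em-Ex and highest cells of 534 and 380 per 10000. In YS-Ex the 95th and 99th percentiles were 1.44 and 64.1 for Mcpt1 and 14.5 and 108 for Mcpt2. A level of 100 or more per 10000 was reached in 66 Em-Ex and 14 YS-Ex cells for Mcpt1 and in 75 and 23 cells for Mcpt2. Mcpt2 was thus held by more cells, while the single highest cell of either library was one of Mcpt1.

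A level of 10 or more UMIs per 10000 was reached for Mcpt1 in 208 Em-Ex cells (6.77%, 5.91% to 7.72%) and in 50 YS-Ex cells (2.40%, 1.78% to 3.15%). For Mcpt2 it was reached in 356 Em-Ex cells (11.6%, 10.5% to 12.8%) and in 119 YS-Ex cells (5.70%, 4.75% to 6.78%). Those few cells carried 94.3% and 94.1% of all Mcpt1 UMIs and 89.5% and 89.9% of all Mcpt2 UMIs of their library. The 1% of cells with the most UMIs, 30 cells in Em-Ex and 20 in YS-Ex, alone held 51.2% and 76.4% of Mcpt1 and 33.2% and 51.7% of Mcpt2. The library totals of both genes, Mcpt1 in YS-Ex above all, therefore rest on few cells.

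**Figure D1:**
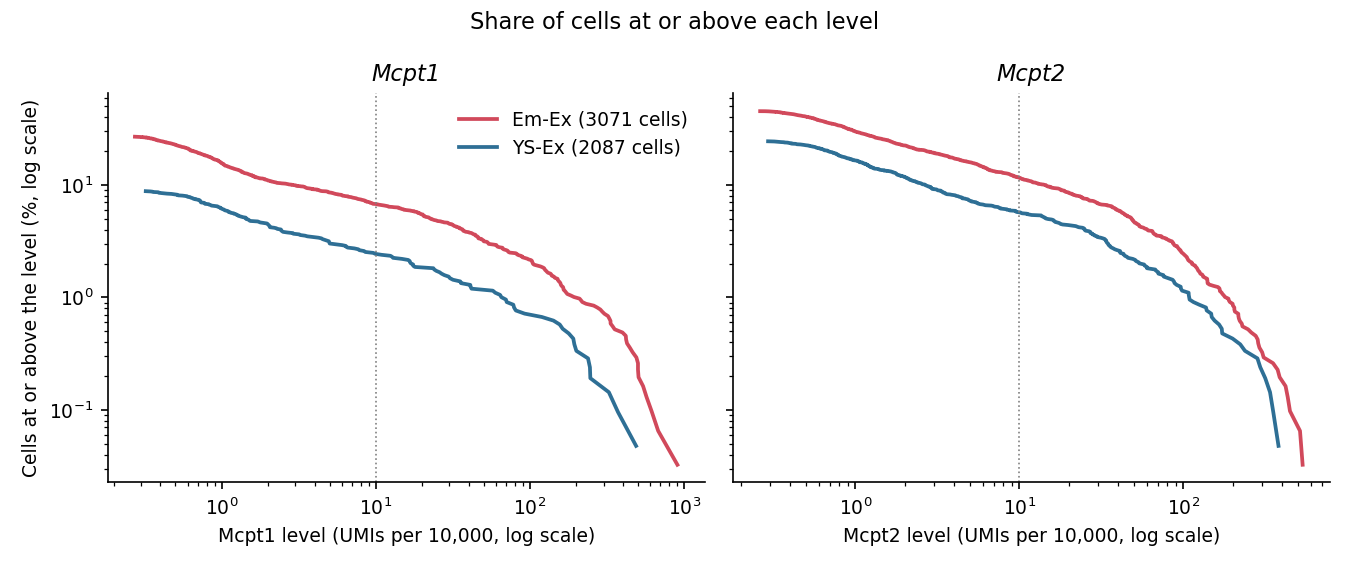
Share of all cells (y, %, log scale) at or above each level (x, UMIs per 10000, log scale) for Mcpt1 and Mcpt2 in Em-Ex (red) and YS-Ex (blue), with a dotted line at 10 per 10000. The Em-Ex curve lies above the YS-Ex curve along its whole length for both genes, and at the dotted line the shares are 6.77% and 2.40% for Mcpt1 and 11.6% and 5.70% for Mcpt2.

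Cells with almost no Cpa3 were taken as the background, and whether their UMIs of the members came from free RNA was not tested. Among 538 Em-Ex cells with under 5 Cpa3 UMIs per 10000, a Mcpt1 UMI was seen in 18.6% and a Mcpt2 UMI in 26.4%, at a median of 19888.5 UMIs per cell. The Cpa3-high Em-Ex cells, at a median of 11245.5 UMIs, held one in 26.9% and 47.7%. Thinning each cell to 3000 UMIs, for which every cell was deep enough, brought the low-Cpa3 cells to 2.79% and 4.46% and the Cpa3-high cells to 14.9% and 27.9%. In CPM the low-Cpa3 Em-Ex cells stood at 17.4 for Mcpt1 and 24.6 for Mcpt2, and 1 of the 538 cells reached 10 per 10000 of each. For Mcpt1 that 1 cell held 36.8% of the UMIs of the group, and for Mcpt2 22.5%. A cell with 1 to a few UMIs of a member in Em-Ex is thus within what cells with almost no Cpa3 also show, while 10 or more per 10000 is above what all but 1 of them show for that member. In YS-Ex only 40 cells had so little Cpa3, and they held 1 Mcpt1 and 7 Mcpt2 UMIs in all.

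Both members were higher in Em-Ex than in YS-Ex. Over all cells, Mcpt1 stood in Em-Ex at 495 CPM (489 to 502) and in YS-Ex at 163 CPM (159 to 168), a ratio of 3.03 (2.94 to 3.13), and Mcpt2 at 578 CPM (571 to 585) and 316 CPM (309 to 322), a ratio of 1.83 (1.79 to 1.88). In Cpa3-high cells the difference was wider. Mcpt1 stood there at 610.4 CPM (601 to 619.7) and 119.6 CPM (115 to 124), a ratio of 5.11 (4.91 to 5.31). Mcpt2 stood at 624 CPM (615 to 634) and 272 CPM (265 to 278), a ratio of 2.30 (2.23 to 2.36). Of 6998 genes at 10 CPM or more in either library's Cpa3-high cells, 1.34% were at least 2-fold higher in Em-Ex and 10.7% at least 2-fold lower, and by this ratio Mcpt1 was in place 6 and Mcpt2 in place 54 from the top. Over all cells 5.33% of 7227 genes were at least 2-fold higher, among them Mcpt1 but not Mcpt2, and 9.84% at least 2-fold lower. Without the 1% of cells with the most UMIs of the gene in each library, the log2 ratio of Mcpt1 in Cpa3-high cells was 3.35 in place of 2.35 and over all cells 2.65 in place of 1.60, so the ratio was smaller with the top cells than without them.

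Cells of male and of female concepti came from different animals and so gave the comparison once within each sex. A cell was called male where no Xist UMI but at least 1 UMI of the Y-linked genes Ddx3y, Eif2s3y, Kdm5d and Uty was seen, and female in the opposite case. Among Cpa3-high male cells (372 in Em-Ex and 608 in YS-Ex), Mcpt1 stood at 394 and 89.9 CPM, a ratio of 4.38 (4.02 to 4.78), and Mcpt2 at 559 and 184 CPM, a ratio of 3.04 (2.85 to 3.24). Among Cpa3-high female cells (1605 and 1094), Mcpt1 stood at 721 and 133 CPM, a ratio of 5.42 (5.17 to 5.69), and Mcpt2 at 654 and 283 CPM, a ratio of 2.31 (2.23 to 2.39). Both members were higher in Em-Ex in either sex. Cells of both sexes shared the sort and the library, so these are not replicate libraries.

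Both members were highest in cells with some Cpa3 and lower in cells with much of it, more steeply so in YS-Ex. Just below the limit of 40, at 5 to under 40 Cpa3 UMIs per 10000, Mcpt1 stood at 906 CPM in 333 Em-Ex cells and 1221 CPM in 101 YS-Ex cells. Just above it, at 40 to under 80, it stood at 709 CPM in 652 Em-Ex cells and 434 CPM in 240 YS-Ex cells. From there it was 657 and 135 CPM at 80 to under 160, 436 and 32.1 CPM at 160 to under 320, and 313 and 5.77 CPM at 320 or more. At 5 to under 40, then, Mcpt1 was the higher in YS-Ex, whereas in each step above 40 Em-Ex was the higher, with a widening ratio.

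Mcpt2 was the higher in Em-Ex in each of these steps, at 1557 and 1456 CPM (Em-Ex first) just below the limit and at 943 and 560 CPM just above it. It then stood at 504 and 368 CPM at 80 to under 160, at 417 and 143 CPM at 160 to under 320, and at 377 and 24.1 CPM at 320 or more. Just below the limit, 25.8% (21.2% to 30.9%) of Em-Ex and 20.8% (13.4% to 30.01%) of YS-Ex cells were at 10 or more per 10000 of Mcpt2, with overlapping intervals. For Mcpt1 that share was 16.2% (12.4% to 20.6%) in Em-Ex and 6.93% (2.83% to 13.8%) in YS-Ex. There the YS-Ex cells at 10 or more were 7 in number, so its higher total just below the limit came from few cells. At 320 or more Cpa3 UMIs, 6 cells of 86 in Em-Ex and 0 cells of 156 in YS-Ex reached 10 per 10000 of Mcpt1, the latter allowing a share of up to 1.92% by 3 counts and of 2.34% by the exact interval.

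**Figure D2:**
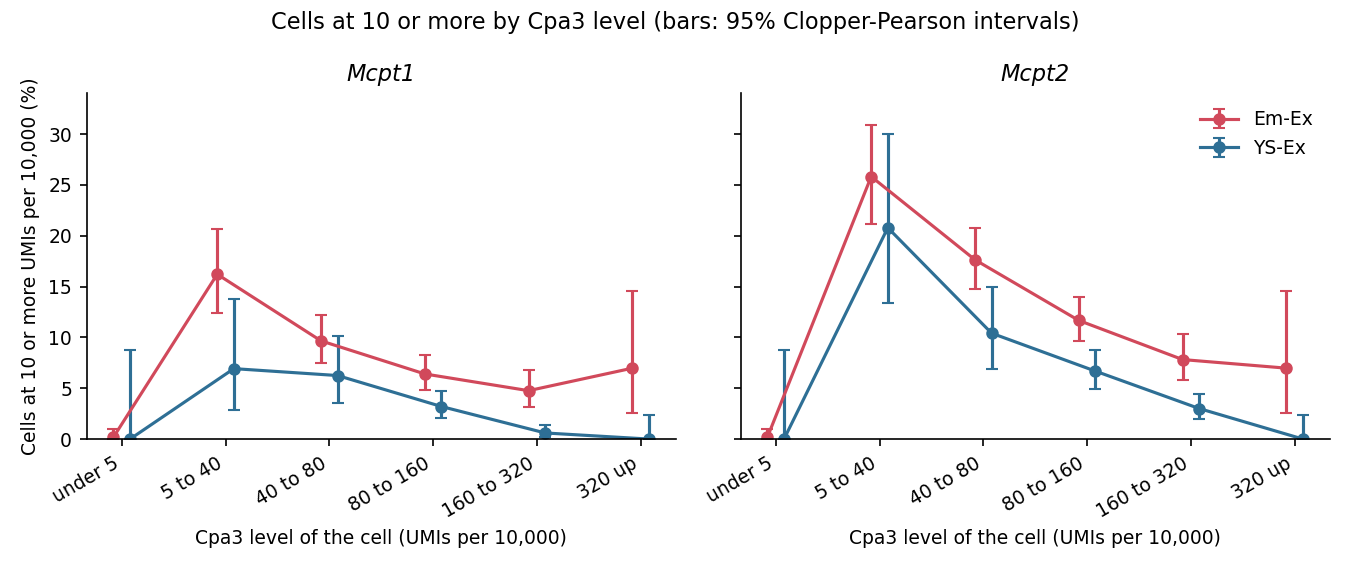
Share of cells (y, %) at 10 or more UMIs per 10000 of Mcpt1 and of Mcpt2 by the Cpa3 level of the cell (x, 6 steps in UMIs per 10000), in Em-Ex (red) and YS-Ex (blue), with Clopper-Pearson intervals. Both genes are near 0 under 5 Cpa3 UMIs, where YS-Ex has 40 cells and an interval up to 8.81%. The points are highest at 5 to 40, where Mcpt2 reached 25.8% and 20.8% of cells. For Mcpt1 in YS-Ex, 6.93% at 5 to 40 and 6.25% at 40 to 80 have overlapping intervals. The YS-Ex points come down to 0 at 320 or more.

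The members went together in single cells, with Mcpt2 as the wider of the sets. Over Cpa3-high cells, Pearson's r between log2(UMIs per 10000 + 1) of Mcpt1 and Mcpt2 was 0.66 over 2200 Em-Ex cells and 0.59 over 1946 YS-Ex cells, all of which share their library, culture and range of depth. Both were at 10 or more per 10000 in 119 Em-Ex cells, Mcpt1 alone in 34 and Mcpt2 alone in 150. In YS-Ex both were so in 35 cells, Mcpt1 alone in 8 and Mcpt2 alone in 63. Of the Mcpt1 cells, 77.8% in Em-Ex and 81.4% in YS-Ex were therefore also Mcpt2 cells, whereas 44.2% and 35.7% of the Mcpt2 cells were also Mcpt1 cells.

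Cells at 10 or more of one member without a single UMI of the other were nearly all Mcpt2 cells. In Em-Ex 91 of 269 Mcpt2 cells had 0 Mcpt1 UMIs, against 4 of 153 Mcpt1 cells with 0 Mcpt2 UMIs, and in YS-Ex the numbers were 41 of 98 and 1 of 43. The mix differed widely between cells. Among Cpa3-high cells at 10 or more of the sum, Mcpt1 gave a median of 27.0% of the summed UMIs in Em-Ex (10th to 90th percentile 0% to 81.6%) and 8.89% in YS-Ex (0% to 75.5%).

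**Figure D3:**
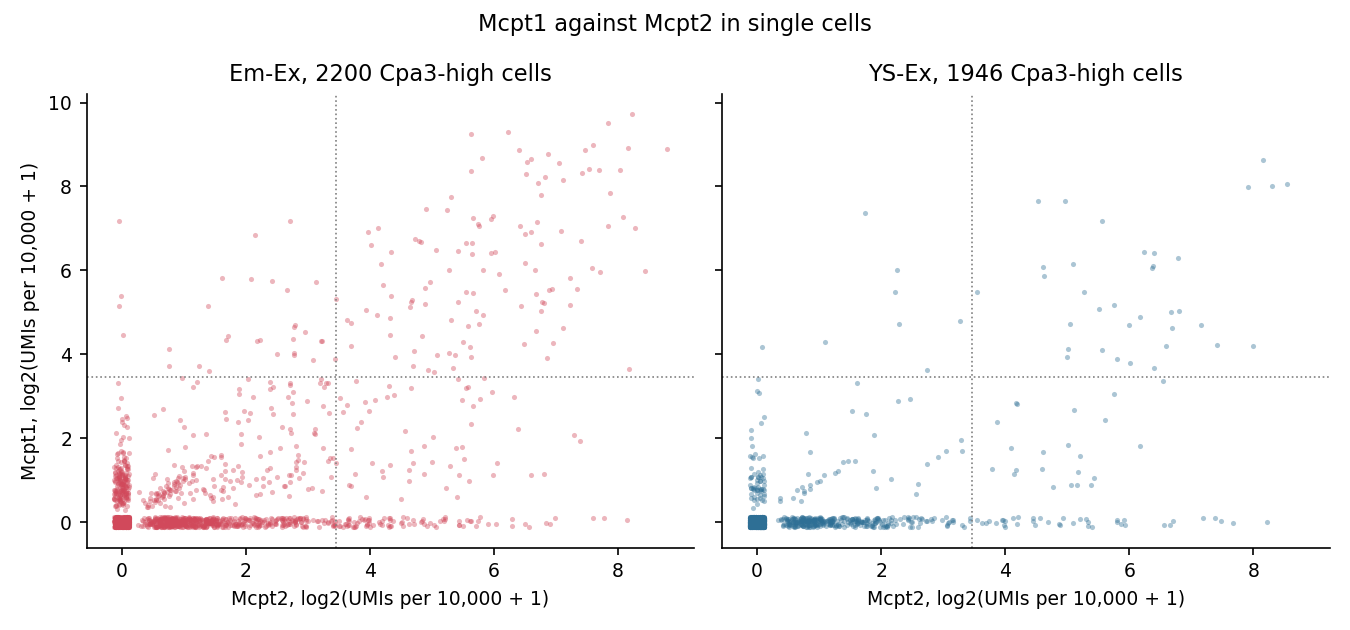
Mcpt1 (y) against Mcpt2 (x), both as log2(UMIs per 10000 + 1), in each Cpa3-high cell of Em-Ex (2200 cells) and YS-Ex (1946 cells), with dotted lines at 10 per 10000 and points shifted slightly at random so that they do not hide each other. The upper right field holds 119 Em-Ex and 35 YS-Ex cells, the lower right field 150 and 63, and the upper left field 34 and 8.

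Genes that go with the members were sought in Cpa3-high cells by the correlation of each gene with summed Mcpt1 and Mcpt2. Of 2238 genes at 50 CPM or more in Em-Ex, r was 0.2 or more for 24 genes (1.07%) and -0.2 or less for 29 genes (1.30%), and of 2369 genes in YS-Ex it was so for 13 (0.549%) and 10 (0.422%). The median r over all these genes was -0.03 in both libraries. The 10 highest in Em-Ex were all above 0 in YS-Ex, which had no part in choosing them, and 6 of the 10 were there at 0.2 or more. Of the 10 lowest in Em-Ex, 9 were below 0 in YS-Ex and 1 was at -0.2 or less. Of all 1994 genes tested in both libraries, 28.9% were above 0 in YS-Ex and 71.1% below 0, so that 9 of 10 below 0 is not far from the share of all genes. Genes at 0.2 or more in both included H19, Alox5ap, Atp1b1, Ifitm2, Mcpt4 and Gngt2, and the only gene at -0.2 or less in both was Scd2.

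Cells at 10 or more per 10000 of the summed members had fewer UMIs than cells with 0, and depth was measured beside the gene correlations. Cells above 0 to under 10 did not have fewer. The r of summed Mcpt1 and Mcpt2 with log2 UMIs per cell was -0.25 in Em-Ex and -0.18 in YS-Ex. The r with Cpa3 was -0.11 and -0.19, and the r with the mitochondrial percent 0.17 and 0.02. Cells were therefore also set in 4 steps of the summed level, chosen after the data were seen: 0 UMIs, above 0 to under 10, 10 to under 100, and 100 or more per 10000. The steps held 960, 912, 234 and 94 Em-Ex cells at medians of 11252, 12158.5, 8972 and 7794.5 UMIs, and 1415, 420, 83 and 28 YS-Ex cells at 11976, 12101, 9036 and 8800.5 UMIs. After thinning all cells to 3000 UMIs, 61 of the 62 values of r of the named genes kept their sign, and 58 of the 62 became smaller in size. Of 36 values of size 0.2 or more, 22 were still so at equal depth, and 9 were over 1.5 times smaller, namely Scd2 in both libraries (-0.15 and -0.17 after thinning), Atp1b1 (0.24), Igf2 (0.19), Cd55 (-0.18), Adk (-0.14) and Nme4 (-0.12) in Em-Ex, and Fut8 (-0.15) and Ivns1abp (-0.10) in YS-Ex. H19, Mcpt4 and Alox5ap were at 0.36, 0.30 and 0.32 in Em-Ex and at 0.43, 0.48 and 0.32 in YS-Ex after thinning. The part of depth in these correlations was not tested beyond that.

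**Figure D4:**
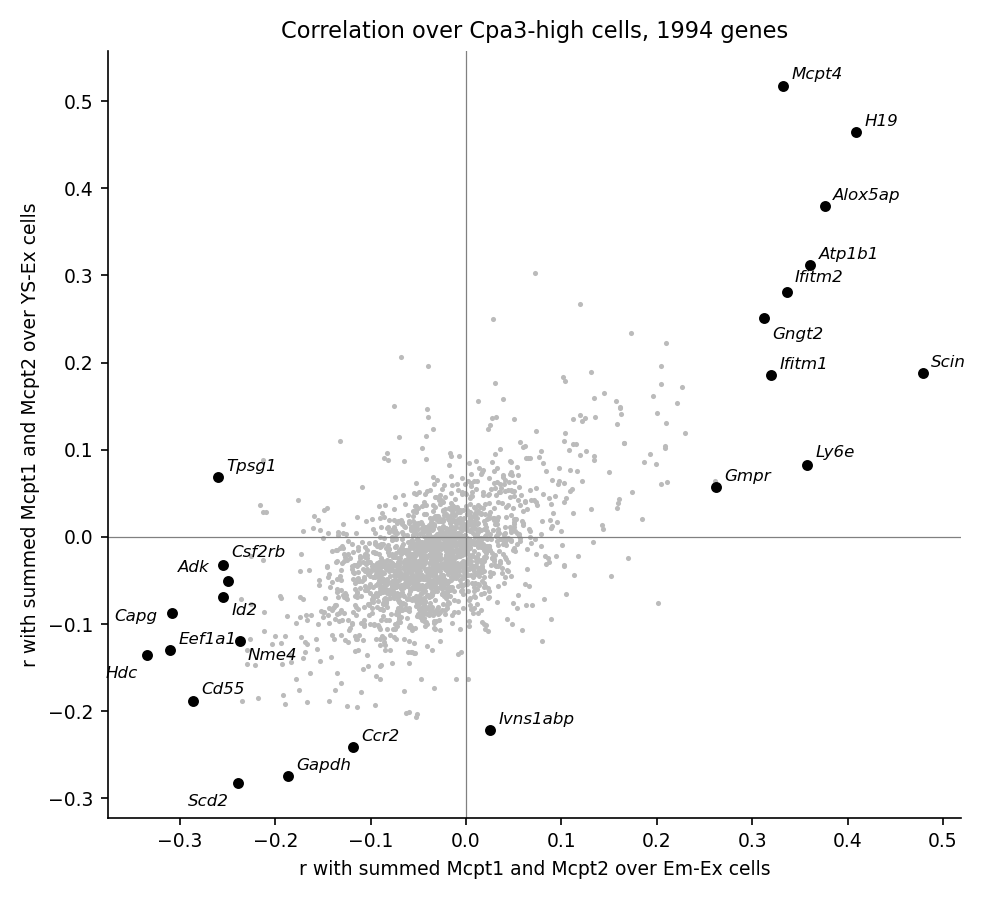
Pearson's r of each gene with summed Mcpt1 and Mcpt2 over Cpa3-high cells in Em-Ex (x) and YS-Ex (y) for 1994 genes at 50 CPM or more in both libraries, with the named highest and lowest genes in black. Mcpt4 (0.33 and 0.52), H19 (0.41 and 0.46) and Alox5ap (0.38 and 0.38) lie at the upper right, Scd2 (-0.24 and -0.28) at the lower left, and Scin and Ly6e lie far to the right but lower on the YS-Ex axis.

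Among granule proteases, Mcpt4 went with the members in both libraries, while Cma1 and Tpsb2 were lowest in the highest step. The r of Mcpt4 was 0.33 in Em-Ex and 0.52 in YS-Ex, the highest of all genes tested there, and over the 4 steps it stood at 671, 966, 2488 and 2193 CPM in Em-Ex and at 424, 1456, 5797 and 6296 CPM in YS-Ex. Cma1 stood at 17451, 17624, 14404 and 6591 CPM in Em-Ex and at 14471, 17443, 15738 and 8552 CPM in YS-Ex, and Tpsb2 at 7538, 7269, 5532 and 2225 CPM and at 8024, 9475, 8457 and 4943 CPM. Their r was -0.21 each in Em-Ex and 0.03 each in YS-Ex. In cells at 10 or more against 0 the ratio was 0.712 for Cma1 and 0.623 for Tpsb2 in Em-Ex and 0.968 and 0.948 in YS-Ex, where the lower level was thus that of the 28 cells of the highest step. Cma2, a chymase gene below the 50 CPM asked of a tested gene, had an r of 0.09 in Em-Ex and 0.22 in YS-Ex, and stood at 18.2, 19.6, 34.4 and 37.3 CPM over the steps in Em-Ex and at 13.6, 23.8, 53.5 and 66.5 CPM in YS-Ex, the last from 17 UMIs. Tpsg1, a transmembrane tryptase, differed in sign between the libraries, with an r of -0.26 in Em-Ex and 0.07 in YS-Ex. Tpsab1, the other soluble tryptase, had an r of -0.13 and 0.11, and Mcpt8, the basophil protease of the same gene cluster, peaked at 10 to under 100 with 152 and 77.2 CPM and stood at 38.5 and 15.6 CPM at 100 or more, the last from 4 UMIs.

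The ends of the range were compared as well. Cells at or above the 75th percentile of the summed level (550 in Em-Ex, at 2.85 per 10000 or more, and 487 in YS-Ex, at 0.52 or more) were set against cells at or below the 25th percentile, which held 0 UMIs (960 and 1415). In Em-Ex 47 of 6415 genes were at least 2-fold higher (0.733%) and 41 at least 2-fold lower (0.639%), and in YS-Ex 31 (0.451%) and 28 (0.407%) of 6876. Both libraries shared 10 higher genes (0.163% of 6118) and 3 lower ones (0.0490%), and 0 genes were at least 2-fold apart in opposite directions. The median log2 ratio over all genes was -0.07 and -0.05. The lower genes, outside the naming rule and named after their values were seen, were Nr4a2, an immediate early transcription factor (-1.21 and -1.10), Itga4, an integrin chain (-1.20 and -1.25), and the adult beta globin Hbb-bt (-1.14 and -1.44). The upper cells of YS-Ex reach down to 0.52, a level that some cells with under 5 Cpa3 UMIs also show. In Em-Ex the limit of 2.85 is above the 99th percentile of such cells, 1.17 for Mcpt1 and 2.18 for Mcpt2. A second split, added after the data were seen, set cells at 10 or more per 10000 (328 and 111) against cells with 0 UMIs. It gave 22 higher (0.356%) and 27 lower genes (0.437%) of 6179 in both libraries, and 6 genes (0.0971%) at least 2-fold apart in opposite directions. Of these, 5 were higher in Em-Ex and lower in YS-Ex: Fcer1a, the alpha globin Hba-a1, the prion protein gene Prnp (2.05 and -2.47), the leukotriene B4 receptor gene Ltb4r1 (1.82 and -2.28) and the kinase gene Pim2 (1.09 and -1.78). The stress-induced transcription factor gene Atf3 had -1.12 and 1.17.

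Of the list of 8 connective tissue type granule genes, 7 were tested in each library and Mcpt4 alone passed 2-fold in the quartile split, with a median log2 ratio over the list of -0.34 in Em-Ex and 0.28 in YS-Ex. In the cells at 10 or more against 0, at least 2-fold higher genes made up 1.08% of 6476 tested in Em-Ex and 1.67% of 6991 tested in YS-Ex, and at least 2-fold lower genes 1.14% and 4.39%. Mcpt4 was there 3.60-fold (3.49 to 3.71) higher in Em-Ex and 13.9-fold (13.5 to 14.4) higher in YS-Ex. Medians over the list were there -0.68 in Em-Ex and -0.05 in YS-Ex, so that the YS-Ex median was of the other sign than in the quartile split. Mrgprb2, the receptor through which cationic drugs set off connective tissue mast cells, passed 2-fold lower in both, at 6.27 against 16.2 CPM in Em-Ex and 3.78 against 10.2 CPM in YS-Ex, the lower values from 20 and 4 UMIs. The lists hold these genes because of their textbook roles, and Mcpt4, Cma1 and the tryptases were known from earlier results of these data.

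The 2 imprinted neighbours H19, a long noncoding RNA of fetal tissue, and Igf2, a fetal growth factor, stood with the members in both libraries. H19 had an r of 0.41 in Em-Ex and 0.46 in YS-Ex, and over the 4 steps stood at 343, 592, 1295 and 2312 CPM in Em-Ex and at 305, 737, 2900 and 4474 CPM in YS-Ex. Igf2, which at 20.3 CPM in Em-Ex was under the 50 CPM asked of a tested gene there, had an r of 0.29 and 0.43, and stood at 10.9, 17.6, 50.7 and 112 CPM in Em-Ex and at 80.1, 149.6, 874 and 1588 CPM in YS-Ex. Each step up in the members was thus a step up in both genes. The ratio of cells at 10 or more to cells with 0 UMIs was 4.52 (4.34 to 4.71) and 10.7 (10.3 to 11.2) for H19.

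Alox5ap, which presents arachidonic acid for leukotriene synthesis, had an r of 0.38 in both libraries and stood at 628, 775, 1343 and 1800.0 CPM over the steps in Em-Ex and at 412, 660, 1610.1 and 1897 CPM in YS-Ex. Ltc4s, which makes leukotriene C4, stood at 15.2, 18.6, 24.7 and 38.5 CPM and at 15.8, 21.1, 24.9 and 46.9 CPM, the last from 12 UMIs. Ptgs1, the constitutive cyclooxygenase, was at 105 against 46.7 CPM in Em-Ex and at 139.8 against 34.6 CPM in YS-Ex in cells at 10 or more against 0. Hpgds, a prostaglandin D synthase, stood at 111 and 101 CPM in the lowest and highest step of Em-Ex and at 81.9 and 141 CPM in YS-Ex, so that the libraries differed for it.

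The other named genes on the upper side were of varied kinds. Atp1b1, a subunit of the sodium pump, had an r of 0.36 and 0.31 and stood at 57.1, 74.5, 150.1 and 268 CPM in Em-Ex and at 59.2, 103, 262 and 269.8 CPM in YS-Ex. Ifitm1 and Ifitm2, interferon-induced transmembrane genes, had an r of 0.32 and 0.34 in Em-Ex and 0.19 and 0.28 in YS-Ex. Gngt2, a G protein gamma chain, had 0.31 and 0.25. Scin, the actin-severing protein scinderin, was the highest of all genes in Em-Ex at 0.48 but stood at 0.19 in YS-Ex, and over the steps it went 67.2, 96.6, 278 and 769 CPM in Em-Ex against 87.9, 91.5, 189 and 289 CPM in YS-Ex. Ly6e, a GPI-anchored surface protein, and Gmpr, a guanine nucleotide reductase, had an r of 0.36 and 0.26 in Em-Ex and of 0.08 and 0.06 in YS-Ex. Whether r differs between the libraries for these genes was not tested.

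**Figure D5:**
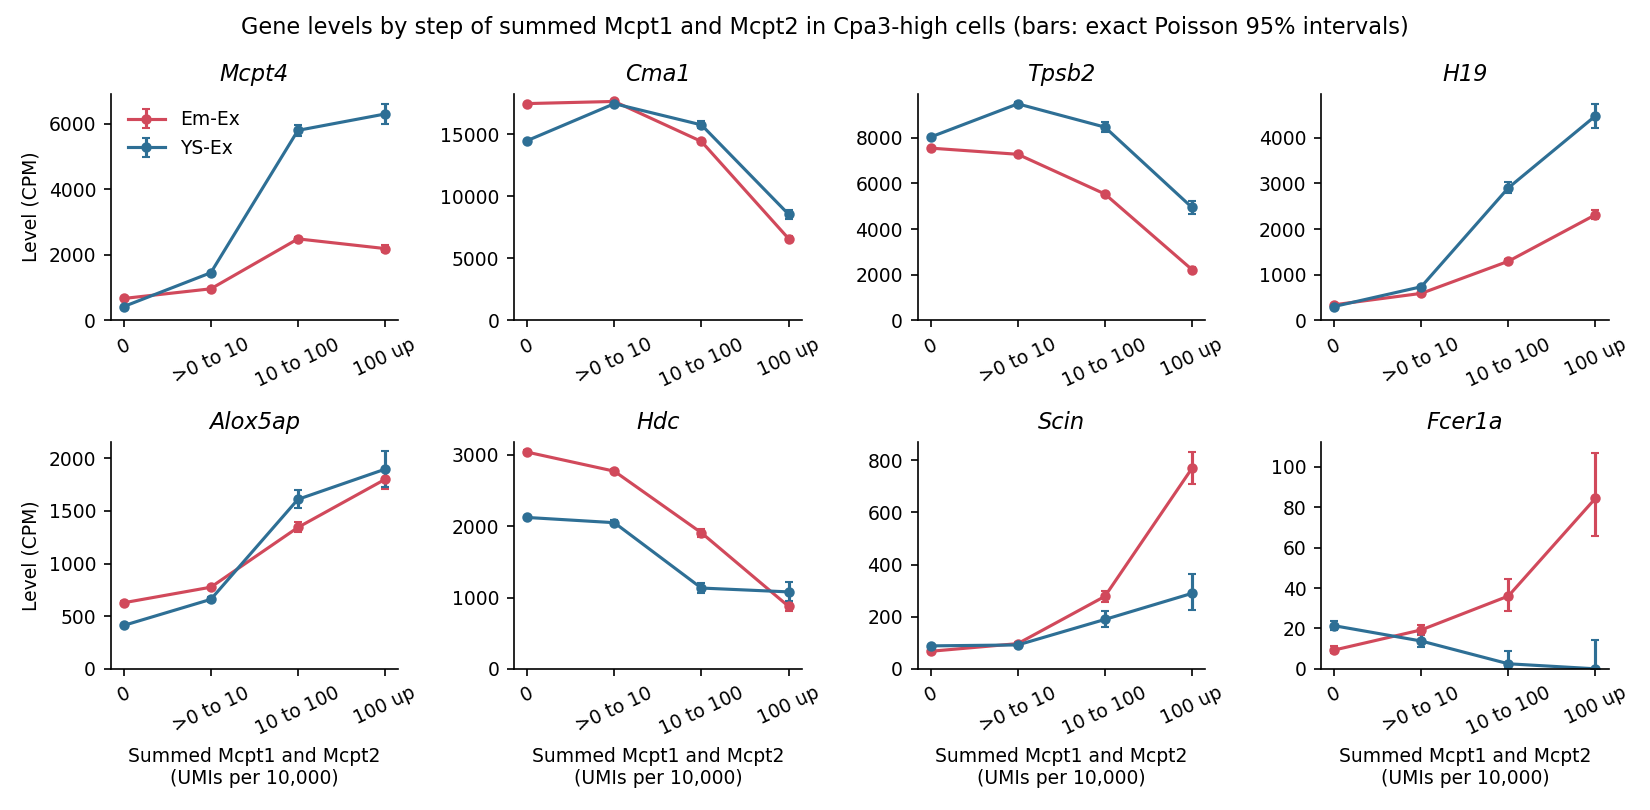
Level in CPM (y) of 8 genes in Cpa3-high cells by step of summed Mcpt1 and Mcpt2 (x, UMIs per 10000), in Em-Ex (red) and YS-Ex (blue), with exact Poisson intervals. Mcpt4, H19, Alox5ap and Scin are higher in the upper steps of both libraries, Hdc, Cma1 and Tpsb2 are lowest at 100 or more in both, and Fcer1a goes up to 84.5 CPM in Em-Ex and down to 0 in YS-Ex.

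The named genes on the lower side were likewise of varied kinds. Hdc, the enzyme that makes histamine, had the lowest r in Em-Ex at -0.33 and -0.14 in YS-Ex, and it stood at 3040.3, 2773, 1908 and 877 CPM over the steps in Em-Ex and at 2123, 2050.2, 1133 and 1079 CPM in YS-Ex. Scd2, a fatty acid desaturase, had -0.24 and -0.28 and stood at 327, 323, 217 and 157 CPM in Em-Ex and at 477, 391, 198 and 137 CPM in YS-Ex. Cd55, which shields cells from complement, had -0.29 and -0.19. Eef1a1, a translation elongation factor, Capg, an actin-capping protein, Csf2rb, the chain through which IL-3 signals, Id2, an inhibitor of helix-loop-helix factors, Adk, adenosine kinase, and Nme4, a nucleoside diphosphate kinase, lay between -0.31 and -0.24 in Em-Ex and between -0.13 and -0.03 in YS-Ex. Of the genes lowest in YS-Ex, Gapdh, a glycolytic enzyme, had -0.19 and -0.27, Fut8, a fucosyltransferase, -0.11 and -0.27, and Ccr2, a chemokine receptor, -0.12 and -0.24. Ivns1abp, the fifth of them, had 0.03 in Em-Ex and -0.22 in YS-Ex. Gapdh stood at 1779 and 1343 CPM in the lowest and highest step of Em-Ex and at 1261 and 500.5 CPM in those of YS-Ex.

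Of 13 constitutive mast cell genes, all tested, 1 was at least 2-fold higher in the upper quartile of Em-Ex (Fcer1a) and 0 in that of YS-Ex, with a median log2 ratio of -0.04 and -0.01. Of all genes, 0.733% and 0.451% were at least 2-fold higher there. Fcer1g, the signalling chain of the IgE receptor, stood at 2910.3 and 2927 CPM in the lowest and highest step of Em-Ex and at 2693 and 2816 CPM in those of YS-Ex. Kit, the SCF receptor used in the sort, stood at 342 and 297 CPM in Em-Ex and 959 and 1400.0 CPM in YS-Ex, and Gata2, a mast cell transcription factor, at 560.2 and 378 CPM and at 741 and 520.1 CPM. In cells at 10 or more against 0, Fcer1a and Ms4a2 were past 2-fold higher in Em-Ex, while in YS-Ex Hpgds was past 2-fold higher and Fcer1a lower, with medians of 0.00 and -0.27. Over all genes of this split, 1.08% and 1.67% were at least 2-fold higher (Em-Ex and YS-Ex). At least 2-fold lower were 1.14% and 4.39%, and the medians were -0.07 and -0.08. Fcer1a, the IgE-binding chain, ran opposite ways, at 9.29, 19.3, 36.1 and 84.5 CPM over the steps in Em-Ex and at 21.4, 13.8, 2.49 and 0 CPM in YS-Ex, where the last 2 steps held 2 and 0 UMIs. Ms4a2, the beta chain of that receptor, was at 48.7 and 188 CPM in the lowest and highest step of Em-Ex and at 71.4 and 31.3 CPM in those of YS-Ex. The IgE receptor chains other than Fcer1g thus went with the members in Em-Ex and not in YS-Ex, a difference that was not tested.

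Genes of the pathways known to act on Mcpt1 were counted in both splits. Over all genes at 10 or more against 0, 1.08% and 1.67% were at least 2-fold higher (Em-Ex and YS-Ex). At least 2-fold lower were 1.14% and 4.39%, and the medians were -0.07 and -0.08. Of 20 TGF-beta pathway genes, 15 were in the table, and 7 in Em-Ex and 10 in YS-Ex were tested in the quartile split, with 0 past 2-fold and medians of -0.23 and 0.13. In cells at 10 or more against 0, Skil, a repressor of SMAD signalling, alone passed 2-fold, higher in YS-Ex at 24.6 against 10.0 CPM from 26 UMIs in the upper cells, and the medians were -0.31 and 0.33. Tgfb1 itself, the ligand, was at 371 and 209.9 CPM in the lowest and highest step of Em-Ex and at 224 and 145 CPM in those of YS-Ex. Itgae, the integrin alpha E chain, had 7, 10, 2 and 14 UMIs over the steps of Em-Ex, at 0.59 CPM in the lowest and 17.4 CPM (9.51 to 29.2) in the highest, and 0 UMIs in YS-Ex Cpa3-high cells, which allows up to 0.119 CPM. Of 12 Notch genes, 7 were in the table, 3 and 4 were tested and 0 passed 2-fold, with medians of 0.06 and -0.35. At 10 or more against 0, Rbpj, the DNA-binding factor of Notch signalling, was past 2-fold lower in YS-Ex at 35.9 against 84.1 CPM and stood at 29.1 against 36.2 CPM in Em-Ex, and the medians over the list were 0.09 and -0.63.

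Of 20 cytokine receptors and STAT5 targets, 18 were tested in each library and 0 passed 2-fold in the quartile split, with medians of -0.04 and -0.12. At 10 or more against 0, 1.14% of all genes tested in Em-Ex and 4.39% in YS-Ex were at least 2-fold lower. The medians over all genes were there -0.07 and -0.08. At 10 or more against 0, Bcl2, an inhibitor of apoptosis, was past 2-fold lower in YS-Ex, from 5 UMIs in the upper cells, and stood at 18.8 against 9.88 CPM in Em-Ex. Of 16 mast cell transcription factors, 14 were tested and 0 passed 2-fold in the quartile split, with medians of 0.03 and -0.14. At 10 or more against 0, Runx1 alone of the 14 was past 2-fold lower in YS-Ex at 97.3 against 198 CPM, whereas in Em-Ex it stood at 76.5 against 54.1 CPM. A single gene of 14 or of 18 is not far from the YS-Ex share of all genes. Of 16 activation genes, 15 and 10 were tested, and Il13, a type 2 cytokine, was the only one past 2-fold in the quartile split, lower in Em-Ex. At 10 or more against 0, 4 of 15 tested genes were past 2-fold lower in Em-Ex (Il13, Csf2, Ccl2 and Ccl7) and 3 of 10 in YS-Ex (Il13, Il6 and Tnfrsf9), with 0 past 2-fold higher and medians of -0.06 and -0.58. The shares over all genes were 1.14% and 4.39% lower. Tnfrsf9, a costimulatory receptor, was at 52.0 against 32.4 CPM in Em-Ex and at 4.72 against 38.7 CPM in YS-Ex, the lower value from 5 UMIs. Over the steps Il13 stood at 57.2, 36.8, 25.6 and 11.2 CPM in Em-Ex and at 73.5, 45.4, 17.4 and 0 CPM in YS-Ex, where the last step held 0 UMIs and allows up to 11.7 CPM. It was therefore lower with each step up in the members in both libraries.

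Cell cycle genes were counted in the same way. Of 15 S phase genes, 13 and 14 were tested with 0 past 2-fold in the quartile split, and of 16 G2/M genes 14 were tested with Cenpf alone lower in YS-Ex. At 10 or more against 0, Ccne2 of the S phase genes was past 2-fold lower in YS-Ex, from 5 UMIs in the upper cells, and 0 G2/M genes passed 2-fold. Over all genes of that split, 4.39% were at least 2-fold lower in YS-Ex. The summed G2/M genes stood at 800.03, 808, 937 and 631 CPM over the steps in Em-Ex and at 682, 726, 631 and 137 CPM in YS-Ex, the last from 28 cells. The summed S phase genes stood at 657, 735, 730.2 and 800.02 CPM in Em-Ex and at 491, 590.0, 374 and 520.1 CPM in YS-Ex.

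Markers of other cell types were summed in the same cells. Over all genes of the quartile split, 0.733% and 0.451% were at least 2-fold higher (Em-Ex and YS-Ex) and 0.639% and 0.407% at least 2-fold lower. The summed macrophage genes stood at 180.1 CPM in the upper and 196 CPM in the lower quartile of Em-Ex and at 83.5 and 68.3 CPM in YS-Ex. Neutrophil progenitor genes stood at 9.38 and 20.3 CPM and at 5.72 and 7.85 CPM, eosinophil genes at 13.9 and 20.1 CPM and at 24.1 and 24.96 CPM, and stromal and endothelial genes at 3.07 and 1.51 CPM in Em-Ex and 0 in YS-Ex. Basophil genes stood at 722 and 749.7 CPM and at 647 and 558 CPM, with Mcpt8 alone past 2-fold, higher in YS-Ex. Erythroid genes stood at 113 and 116 CPM in Em-Ex and at 119 and 265 CPM in YS-Ex. In Em-Ex the alpha globin Hba-a1 was past 2-fold higher and Hbb-bt past 2-fold lower, and in YS-Ex Hbb-bt was lower. Megakaryocyte genes stood at 59.7 and 30.1 CPM and at 38.6 and 23.6 CPM, with Itga2b past 2-fold in Em-Ex. At 10 or more against 0, erythroid genes stood at 135 and 116 CPM in Em-Ex and at 51.9 and 265 CPM in YS-Ex, and megakaryocyte genes at 68.3 and 30.1 CPM and at 43.4 and 23.6 CPM. The part of these cell types in the results was not tested.

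Itga2b encodes CD41, against which the cells were sorted. It stood at 15.8, 20.5, 44.0 and 103 CPM over the steps in Em-Ex and at 13.6, 15.7, 24.9 and 58.7 CPM in YS-Ex, the last from 15 UMIs. Pf4, another gene of that list, stood at 12.1, 18.6, 10.1 and 2.49 CPM in Em-Ex and at 10.0, 18.6, 6.23 and 23.5 CPM in YS-Ex. Itga2b was thus higher with each step in both libraries, and Pf4 was not.

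The genes whose r differed most between the members were named by rule, as a description. Over the 1994 genes tested in both libraries, r with Mcpt2 minus r with Mcpt1 had a 5th to 95th percentile range of -0.06 to 0.05 in Em-Ex and -0.05 to 0.04 in YS-Ex. The 5 genes that most favoured Mcpt2, by the smaller of the differences of r in the libraries, were Mcpt4, Ctla2a, Alox5ap, Tpsab1 and Cma1. Mcpt4 had an r of 0.17 with Mcpt1 and 0.35 with Mcpt2 in Em-Ex, and 0.32 and 0.50 in YS-Ex. Cma1 had -0.30 and -0.16 in Em-Ex and -0.06 and 0.05 in YS-Ex, and Tpsab1 had -0.21 and -0.09 and then 0.00 and 0.11. Mcpt4, Tpsab1 and Cma1 are proteases of mast cell granules, and Ctla2a resembles the propeptide of a cathepsin.

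The 5 genes that most favoured Mcpt1 were Gapdh, Limd2, Cpb1, Actr3 and Ivns1abp. Gapdh had an r of -0.10 with Mcpt1 and -0.19 with Mcpt2 in Em-Ex, and -0.18 and -0.26 in YS-Ex, so that it was less low with Mcpt1 than with Mcpt2, and not high with either. Actr3, a subunit of the actin-branching complex, had 0.06 and -0.02 in Em-Ex and -0.05 and -0.11 in YS-Ex. Mcpt1 and Mcpt2 differ in the number of cells that hold a UMI, which also bounds the size of an r, and this was not tested apart.

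The share of male cells was also measured by step. Of Cpa3-high cells with a called sex, 18.1% (15.6% to 20.9%) were male among the Em-Ex cells with 0 UMIs, 22.0% (16.6% to 28.2%) at 10 to under 100 and 10.3% (4.84% to 18.7%) at 100 or more. In YS-Ex the male share was 35.9% (33.2% to 38.6%), 29.4% (18.98% to 41.7%) and 17.4% (4.95% to 38.8%). The intervals of the highest step overlap those of cells with 0 UMIs in either library, and the highest step of YS-Ex held 23 sexed cells.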

How the data were processed

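Single cells of 1 Em-Ex and 1 YS-Ex library (10x Chromium, 3′ chemistry) were measured. The authors deposited raw UMI counts per gene and cell, not normalized. Per the submitters' processing notes, Cell Ranger 2.0.1, bcl2fastq 2.19.1.403 and mm10 were used, and the annotation and chemistry version are not given in the sources used here. Cells were taken to a library by the prefix of their column, and 0 columns were left unmapped. Of 6541 barcodes, those with 1000 to 5000 genes and at most 5% mitochondrial UMIs were kept, by the limits the study's methods state, and no batch correction was applied. These limits left 3071 of 3504 Em-Ex and 2087 of 3037 YS-Ex barcodes, whereas the cell numbers the study gives equal all deposited barcodes, so the cells used here are not its full set. Doublets were not called beyond the limit on genes.

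CPM are summed UMIs over summed totals of cells. Intervals are exact Poisson for levels, Clopper-Pearson for shares and conditional binomial for ratios. A count of 0 is bounded by 3 counts over the group of cells. Log2 ratios between groups of cells use a prior count of 0.5 and genes at 10 CPM or more in 1 group, and correlations use log2(UMIs per 10000 + 1) and genes at 50 CPM or more. Thinning drew 3000 UMIs per cell with seed 1. Named genes are the 10 highest and 10 lowest by r with summed Mcpt1 and Mcpt2 in Em-Ex, the 5 and 5 of YS-Ex, the 5 that most favour each member, and members of the gene lists. The members and lists were chosen with earlier results of these data known. The computations were tested on simulated data. Python 3.11.15, numpy 2.4.6, scipy 1.17.1, pandas 2.3.3 and Biopython 1.88 were used. The alternatives were the filters, scalings, Cpa3 limits, splits and pseudocounts listed at the end, and those by sex, without the top 1% of cells, and at 10 or more against 0 were chosen after seeing the data.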

Additional observations from a re-analysis of the deposited data

Results flagged for a closer look

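The barcodes that the cell filter removed also held both members, and no comparison above uses them. In 433 such Em-Ex barcodes Mcpt1 stood at 427 CPM (410.4 to 444) and Mcpt2 at 587 CPM (567 to 607), and in 950 YS-Ex barcodes they stood at 114 CPM (107 to 122) and 271 CPM (259.6 to 283). These lie above the 0.51 and 0.398 CPM that a count of 0 allows, and the order of the libraries was as in the cells kept.

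Fcer1a ran opposite ways in the libraries. In cells at 10 or more per 10000 of the summed members against cells with 0 UMIs, its log2 ratio was 2.37 in Em-Ex and -3.18 in YS-Ex, the latter from 2 UMIs in the upper cells. Hba-a1, an alpha globin, had log2 ratios of 1.92 in Em-Ex and -1.36 in YS-Ex, from 221 and 26 UMIs in the upper cells. Prnp, the prion protein gene, had 2.05 and -2.47, Ltb4r1, a leukotriene B4 receptor gene, 1.82 and -2.28, Pim2, a kinase gene, 1.09 and -1.78, and Atf3, a stress-induced transcription factor gene, -1.12 and 1.17. For these genes the difference between the libraries was not tested, since each tissue had 1 library.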

How the results depend on the processing

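No paired analysis was possible because each condition had 1 library and no result came from a test. The ratios of the libraries and the correlations of the members changed direction in none of the alternatives run. A share of cells has no direction to change, and its values after thinning are given below. On the log2 scale, the Em-Ex to YS-Ex ratio of Mcpt1 and Mcpt2 over all cells was 1.67 and 0.92 with every deposited barcode, 1.68 and 0.94 with a mitochondrial limit of 10%, 1.70 and 1.06 as a mean over cells, 1.65 and 0.92 with median-of-ratios scaling, 1.65 and 1.04 after thinning, 1.34 and 1.05 in male cells, 1.85 and 0.96 in female cells, and 2.65 and 1.34 without the top 1% of cells, against 1.60 and 0.87 as reported. In Cpa3-high cells it was 2.42 and 1.26 with every barcode, 2.47 and 1.32 with median-of-ratios scaling, 2.92 and 1.02 at a Cpa3 limit of 80, 2.13 and 1.60 in male cells, and 3.35 and 1.69 without the top 1% of cells, against 2.35 and 1.20. Mcpt1 was 2.44 in female cells and Mcpt2 1.24 at a Cpa3 limit of 20. The correlation of the members was 0.38 and 0.32 (Em-Ex and YS-Ex) as Spearman's rho, 0.55 and 0.50 with a pseudocount of 0.1, and 0.63 and 0.56 after thinning, against 0.66 and 0.59, so its size depends on how cells at 0 are weighed. Genes 2-fold higher and lower in both libraries, 10 and 3 as reported, were 18 and 40 with no minimum level, 23 and 31 between the highest and lowest 10% of cells, 3 and 1 when split by Mcpt1, and 22 and 27 for 10 or more against 0, so higher genes outnumbered lower ones as reported but not in the first, second and last of these settings. Within the libraries, genes higher and lower were 47 and 41 in Em-Ex and 31 and 28 in YS-Ex as reported, 290 and 507 and then 106 and 264 with no minimum level, 15 and 7 and then 13 and 10 at a minimum of 50 CPM, 109 and 167 and then 83 and 161 between the highest and lowest 10%, 27 and 7 and then 33 and 30 split by Mcpt1, 52 and 45 and then 99 and 202 after thinning, and 70 and 74 and then 117 and 307 for 10 or more against 0. At a Cpa3 limit of 80 those of YS-Ex were 23 and 17. In both libraries together, the higher genes were 6 at a minimum of 50 CPM, and the lower genes 5 when split by Mcpt2, 8 after thinning and 5 at a Cpa3 limit of 20. Where the 75th percentile of YS-Ex was 0, as when split by Mcpt1, split by Mcpt2 or thinned, any cell with a UMI counted as high. The share of cells with a UMI after thinning was 13.8% for Mcpt1 and 25.1% for Mcpt2 in Em-Ex and 5.41% and 13.6% in YS-Ex, against 26.9%, 45.4%, 8.82% and 24.5%. Of the r of named genes, 60 of 62 kept their sign as Spearman's rho and 61 of 62 after thinning, and all 36 of size 0.2 or more did in both. Of these 36, 32 were smaller in size as Spearman's rho and 36 after thinning, 6 and 9 by over 1.5 times, and 26 and 22 were still at 0.2 or more in size. The limits are 1 library per condition, few cells in the highest steps (94 and 28), and correlations that share depth and composition within a library.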
